A study of Mus musculus with 6 samples.

Results

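The immunoglobulin kappa V and J segments are the gene pieces that are joined to encode the variable part of the kappa light chain. The members were all rows of the deposited gene table whose symbol starts with Igkv or Igkj followed by a digit, and they numbered 103 of 22475 rows, with 98 V and 5 J segments. The RNA came from bone marrow cells of mice, sorted as Lin-, Sca1+, cKit+, a gate that enriches stem and early progenitor cells. Every mouse in both groups carried FLT3-ITD on both alleles, a tandem duplication within the gene of the receptor tyrosine kinase FLT3. The control group (WT-Flt3) had wild-type miR-155 and the other group (KO-Flt3, below KO) a homozygous deletion of this microRNA, with 3 libraries per group. Each library held the RNA of 3 mice. Animals were pooled, so values of single mice are hidden, and age and strain are not given in the sources used here. No group without FLT3-ITD was analysed here.

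A kappa chain gene is assembled in a developing B cell, when the RAG recombinase joins 1 V segment to 1 J segment, and the joined exon is then spliced to the constant gene Igkc. Each B cell and its progeny transcribe the V segment that they joined at a high level. The mix of V segments in RNA is therefore set by how many antibody-producing cells use each segment and by how much RNA each cell makes, with plasma cells far above resting B cells. Joined kappa genes are a feature of the B lineage and not of stem cells. In these bulk samples, fewer cells of a type and less RNA per cell cannot be told apart.

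The V segments matched by identifier and symbol to the GENCODE M21 annotation of GRCm38 (mm10) numbered 93. They lie on chromosome 6 between 67555497 and 70704177, over 3.15 Mb, and 36 of them have the orientation of the J segments while 57 have the opposite one. The J segments lie downstream, between 70722562 and 70723927 on the plus strand. Igkv2-109 and Igkv2-116 have identifiers that are not in M21. The identifiers listed as Igkv19-93, Igkv4-73 and Igkv4-56 carry other symbols there, and those of Igkv19-93 and Igkv4-56 are annotated as V pseudogenes, so these names are given as the table has them.

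The J segments are shown first because every kappa chain ends its variable part in 1 of them. The sequences are GENCODE M21 transcripts on GRCm38, and capitals mark the block that begins with the phenylalanine codon TTC, where the conserved motif of the J region lies. The block of Igkj3 departs from this motif, with AGT as its second codon where the others have GGT, GGA or GGC.
Igkj1: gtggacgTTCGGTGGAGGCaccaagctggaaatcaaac
Igkj2: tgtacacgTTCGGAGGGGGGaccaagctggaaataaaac
Igkj3: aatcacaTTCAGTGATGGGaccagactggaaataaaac
Igkj4: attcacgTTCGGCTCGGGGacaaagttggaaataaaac
Igkj5: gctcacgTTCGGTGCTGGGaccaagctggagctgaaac
Igkj3 has long been regarded as nonfunctional, while the others are used in antibodies.

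The germline V segment whose share of the counts stood out was Igkv14-126 (chromosome 6, 67896172 to 67896642, plus strand). The last bases of its spliced sequence, which encode the variable region up to the joining site, are printed with the conserved cysteine codon at the start of the third complementarity-determining region (CDR3) in capitals.
Igkv14-126: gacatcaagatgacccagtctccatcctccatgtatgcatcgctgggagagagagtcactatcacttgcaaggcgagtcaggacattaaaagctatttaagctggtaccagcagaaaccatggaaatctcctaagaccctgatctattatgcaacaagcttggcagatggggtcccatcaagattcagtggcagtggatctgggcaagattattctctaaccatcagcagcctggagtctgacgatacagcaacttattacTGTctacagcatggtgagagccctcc
The germline CDR3 ends of the same subgroup, and of the segments whose behaviour is set against it below, begin with the same codon in capitals.
Igkv14-126: TGTctacagcatggtgagagccctcc
Igkv14-111: TGTctacagtatgatgagtttcctcc
Igkv14-130: TGTctacagttttatgagtttcctcc
Igkv14-100: TGTgtacagtatgctcagtttcctcc
Igkv15-103: TGTcaacagggtcaaagttatcctct
Igkv10-96: TGCcaacagggtaatacgcttcctcc
Igkv12-89: TGTcaaaatgtgttaagtactcctcc
Igkv3-5: TGTcagcaaagtaatgaggatcctcc
Igkv3-4: TGTcagcaaagtaatgaggatcctcc
A CDR3 end was found in 92 segments and took 83 distinct forms, and no other segment had that of Igkv14-126. Igkv3-5 and Igkv3-4 share theirs. Over the spliced segment, Igkv14-126 was 89.1% identical to Igkv14-111, 82.1% to Igkv14-130 and 80.4% to Igkv14-100.

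Library totals lay between 6843129 and 9443615 counts. Chi-square per degree of freedom between replicates was 7.80 or more, above what counting error alone gives. Genes of the sorted population (such as Kit, Ly6a, Flt3 and Cd34) summed to 1419 to 2015 CPM (gene counts divided by TMM-scaled library sizes) in the control and 1343 to 1875 in the KO libraries, and none was at 0. None of these 9 genes passed the test in edgeR, at an unadjusted p under 0.05 (0 genes), with the replicate block, in DESeq2 or in limma-voom.

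Kappa V RNA was lower in every KO library than in every control library. The V segments together had 31430, 23656 and 35438 counts in the control libraries (replicates 1, 2 and 3), against 5802, 4517 and 12197 for KO. They made up 0.333%, 0.276% and 0.436% of the control libraries and 0.0848%, 0.0594% and 0.170% of the KO libraries. The highest KO library, replicate 3, stayed below the lowest control library, replicate 2. In CPM the means were 3479 ± 807 (SD, n = 3) in the control and 1047 ± 567 (SD, n = 3) in the KO. The difference of the mean log2 CPM was -1.85 with an SE of 0.49, and leaving out 1 library at a time kept it between -2.26 and -1.49.

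The constant gene Igkc, to which every joined V segment is spliced, had 49062, 35851 and 49273 counts in the control against 7700, 6087 and 16513 for KO. In edgeR the log2 difference was -1.87 ± 0.38 (SE; adjusted p 0.228), and -1.99 ± 0.19 with an adjusted p of 0.00477 in edgeR with the replicate number as a block. V counts per Igkc count were 0.641, 0.660 and 0.719 in the control and 0.754, 0.742 and 0.739 in the KO libraries. This ratio was thus slightly higher in the KO, 0.745 ± 0.00779 against 0.673 ± 0.041 (SD, n = 3 each), without overlap.

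Lower levels were spread over most segments. The mean CPM was lower in the KO for 97 of the 103 members, and 67 members (63 V and 4 J) were lower in all 3 KO libraries than in every control library. None was higher in every KO library. Among all genes tested, 4.79% were lower without overlap, against 62 of the 80 members that were tested. A gene was tested where enough libraries held a count of about 10, and 23 members had too few counts. Of the 80, 31 reached that level in every KO library, 42 in some of them and 7 in none. Those 49 thus needed counts in control libraries to be tested.

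The edgeR quasi-likelihood test over 13217 genes, with Benjamini-Hochberg adjustment, called 10 members lower at an adjusted p under 0.05 and none higher. Lower calls made up 0.144% of all genes tested. With the replicate block 40 members were called lower, against 1.04% of all genes, and they held all 10. Of the 10, 6 were among the 31 members that reached the filter level in every KO library, and of the 40, 23 were. The other calls were of members that needed control counts to be tested. DESeq2 called 33 lower, against 0.794% of its genes, limma-voom 5, against 0.113%, and edgeR without a filter on low counts 28, against 0.414%. No member was higher in edgeR at an unadjusted p under 0.05 (0 members), with the block, in DESeq2 or in limma-voom. The number of calls changed when 1 library was left out. Without control replicate 1 or control replicate 3, 0 members and no other gene passed in edgeR, while 57 and 52 members were lower at an unadjusted p under 0.05. The median log2 fold change of the members tested was -2.52 and -2.37 in these fits, against -2.51 with all libraries. Without control replicate 2 the count was 4, and without KO replicate 2 it was 3.

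The median log2 fold change of the 80 was -2.51, against 0.00 over all genes tested, and it was also -2.51 with Igkv1-99, which had 0 counts in every KO library, set to its bound. Fold changes below -3 were found for 29 members, between -3 and -2 for 25, between -2 and -1 for 18, between -1 and 0 for 5, and above 0 for 3. Among the 31 V segments counted above the filter level in every KO library, 29 had a negative fold change, 25 did not overlap between groups, and the median was -2.56. Over the 12366 genes counted at that level in every KO library the median was 0.01, and 4.04% were lower without overlap.

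**Figure D1:**
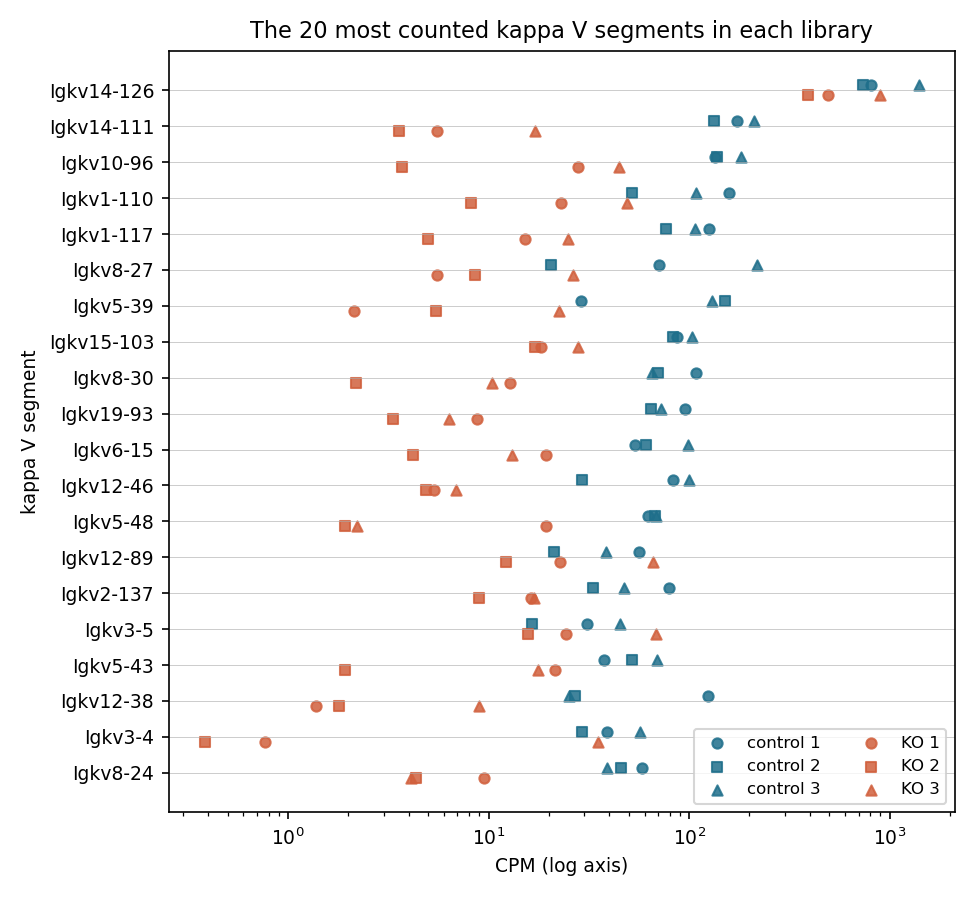
Each row is 1 of the 20 kappa V segments with the highest mean level, and each point is its CPM in 1 library on a log axis, with blue for control and orange for KO and the marker shape giving the replicate number. Igkv14-126 lies furthest right in both groups, and for most rows the orange points lie left of the blue ones; Igkv3-5, with 15.7 to 68.6 CPM in the KO and 16.5 to 45.3 in the control, is an exception.

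The segments that fell came from all along the locus and from several V subgroups. Igkv14-111, the close relative of Igkv14-126 shown above (chromosome 6, 68256389 to 68256869), had 173, 133 and 210.3 CPM in the control and 5.505, 3.58 and 17.1 CPM in the KO libraries. It fell by 4.30 ± 0.50 (SE, log2; adjusted p 0.0365 in edgeR). The highest KO value was thus far below the lowest control value. Igkv15-103, the sole member of its subgroup (68437440 to 68437925), had 87.1, 83.5 and 104 CPM in the control and 18.2, 17.0 and 27.9 CPM in the KO. It fell less, by 2.12 ± 0.20 (adjusted p 0.0243 in edgeR).

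The segment listed as Igkv19-93 had 95.3, 64.6 and 72.4 CPM in the control and 8.72, 3.32 and 6.33 CPM in the KO, and fell by 3.68 ± 0.31 (adjusted p 0.0188 in edgeR). Igkv2-109 had the smallest p of all members. Its control libraries, at 24.6, 23.6 and 23.5 CPM, were close together, and its KO libraries had 2.75, 1.66 and 2.06 CPM. It fell by 3.47 ± 0.20 (adjusted p 0.00484 in edgeR).

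Segments near the J cluster fell as well. Igkv3-2 (70698449 to 70699067) had 30.7, 28.8 and 57.8 CPM in the control and 3.98, 5.11 and 5.78 CPM in the KO, and fell by 2.97 ± 0.32 (adjusted p 0.0339 in edgeR). Igkv3-7 (70607437 to 70608036) had 22.01, 15.01 and 11.6 CPM in the control and 1.22, 0.639 and 0.138 CPM in the KO, and fell by 4.61 ± 0.52 (adjusted p 0.0339). KO replicate 3, which had the most kappa V counts of its group, was the lowest of that group for Igkv3-7, Igkv17-121 and Igkv8-24. The other called segments were Igkv8-24 (-3.01), Igkv6-25 (-3.09), Igkv6-17 (-3.76) and Igkv17-121 (-4.33), with log2 fold changes in parentheses and adjusted p of 0.0339 to 0.0479 in edgeR.

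In edgeR with the low-count filter, several of the most counted segments passed with the replicate block and not without it, and their libraries varied widely. Igkv10-96 had 134, 138 and 182 CPM in the control and 28.0, 3.71 and 44.7 CPM in the KO (log2 fold change -2.58, adjusted p 0.457 in edgeR, 0.0430 with the block). Igkv8-27 had 70.8, 20.5 and 218 CPM in the control and 5.505, 8.57 and 26.3 CPM in the KO (-2.93, adjusted p 0.778 in edgeR, 0.0165 with the block). In the last case control replicate 2 lay below KO replicate 3, so the groups overlapped. With the block, Igkv1-117 (-2.88), Igkv8-30 (-3.33), Igkv5-39 (-3.47) and Igkv1-110 (-2.09) also passed in edgeR, with adjusted p of 0.00477, 0.00477, 0.00757 and 0.0278. Without the block their adjusted p in edgeR were 0.145, 0.105, 0.469 and 0.799. Igkv1-117 and Igkv8-30 did pass without the block in DESeq2 (adjusted p 0.00253 and 0.000797). They also passed in edgeR without the low-count filter (0.00803 and 0.00390), while Igkv5-39 and Igkv1-110 passed in neither.

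Some segments had no count in the KO, so that only a bound can be given. Igkv1-99 was counted 14, 14 and 57 times in the control libraries and never in a KO library. Against the limit of 3 counts over the KO group, it was at least 23.4-fold lower, or at least 11.2-fold without control replicate 3, which held most of its counts. Igkv4-69 had 4, 1 and 67 control counts and 0 in the KO (at least 19.9-fold lower), or at least 2.01-fold without control replicate 3. In all, 8 segments had no count in any KO library, and none was without a count in all control libraries.

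Igkv14-126 was the most counted segment in all 6 libraries and had the fold change nearest to 0 among the 10 segments with the highest mean CPM. It had 7432, 6440 and 11491 counts in the control and 3216, 3049 and 6498 in the KO libraries. In CPM these were 806, 738 and 1401 against 492, 389.8 and 894. KO replicate 3 lay above control replicates 1 and 2, so the groups overlapped. In edgeR its log2 fold change was -0.73 ± 0.36 (SE; adjusted p 0.9996), and with the block -0.76 ± 0.09 (adjusted p 0.00933). All other V segments together had 2602, 1973 and 2919 CPM in the control and 395, 188 and 784 CPM in the KO. Their means were 2498 ± 482 and 456 ± 303 CPM (SD, n = 3), without overlap, and the difference of the mean log2 CPM was -2.67 with an SE of 0.62.

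**Figure D2:**
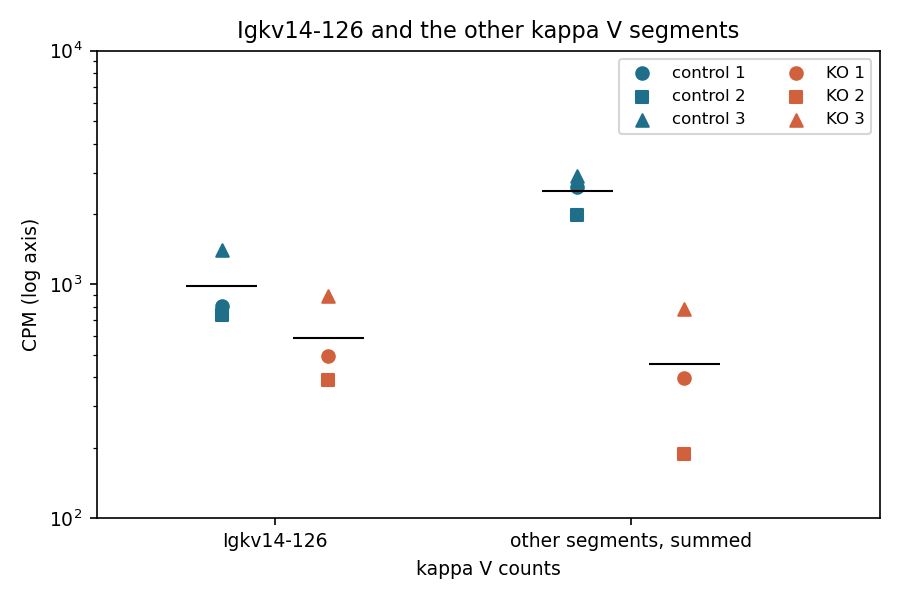
The plot shows CPM on a log axis for Igkv14-126 and for the sum of all other kappa V segments, with 1 point per library (blue for control, orange for KO, marker shape for the replicate number) and a line at each group mean. For Igkv14-126 the group means are 981 and 592 CPM and the points overlap; for the other segments they are 2498 and 456 CPM and do not overlap.

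As a share of the kappa V counts, Igkv14-126 took 23.6% (95% Clopper-Pearson interval 23.2% to 24.1%), 27.2% (26.7% to 27.8%) and 32.4% (31.9% to 32.9%) in the control libraries. In the KO libraries it took 55.4% (54.1% to 56.7%), 67.5% (66.1% to 68.9%) and 53.3% (52.4% to 54.2%). Every KO library lay above every control library, with means of 58.7% ± 7.67 and 27.8% ± 4.41 (SD, n = 3). A two-sided exact permutation test gave p = 0.1, the smallest that 3 against 3 libraries can give. The intervals cover counting error only, and reads without molecular identifiers are not independent molecules. With shares taken from the deposited FPKM, which divide by gene length, the means were 58.1% and 27.1%.

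Behind Igkv14-126 the order differed between libraries. The second most counted segment was Igkv14-111, Igkv5-39 and Igkv8-27 in control replicates 1, 2 and 3, with 5.07%, 5.55% and 5.04% of the kappa V counts. It was Igkv10-96, Igkv15-103 and Igkv3-5 in KO replicates 1, 2 and 3, with 3.15%, 2.94% and 4.09%. So the gap between the first and second segment was wide in both groups.

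**Figure D3:**
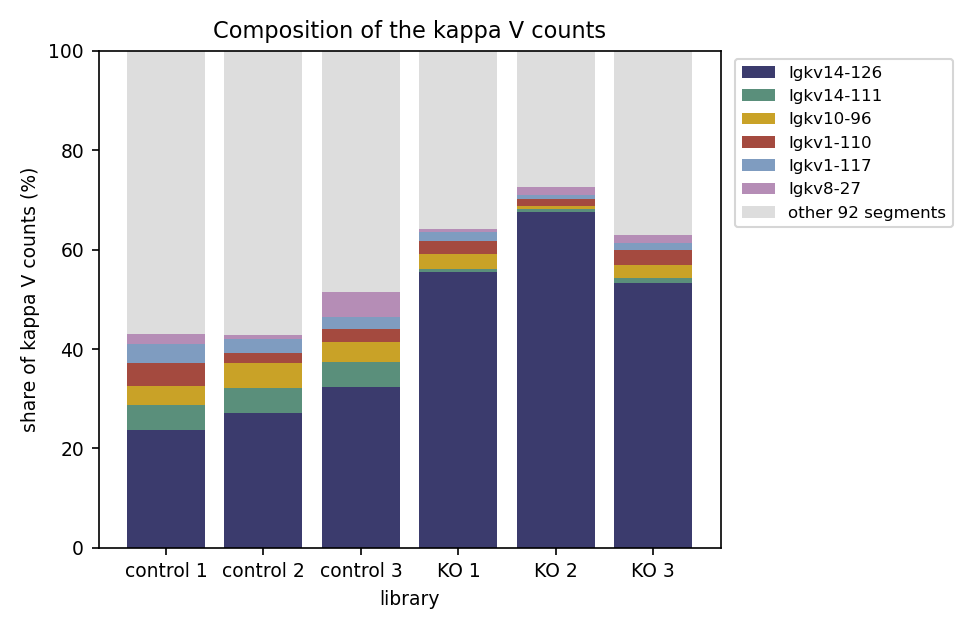
Stacked bars give the share of kappa V counts (%) in each library for the 6 segments with the highest mean CPM and, in grey, for all others together. The dark bottom section, Igkv14-126, spans 23.6% to 32.4% in the control libraries and 53.3% to 67.5% in the KO libraries.

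Among the 98 V segments, 5 had a higher share in every KO library than in every control library, and 29 a lower one. For a single segment, such an order has a two-sided exact permutation p of 0.1, the smallest that 3 against 3 libraries can give. Some of 98 segments can therefore show it by the order of libraries alone. Whether the 5 higher ones exceed that was not tested, so they are only described. Besides Igkv14-126, the share of Igkv3-5 was 0.857% ± 0.226 in the control and 3.19% ± 0.780 in the KO (SD, n = 3). That of Igkv12-89 was 1.11% ± 0.479 and 2.87% ± 0.946, that of Igkv8-28 0.406% ± 0.00721 and 0.799% ± 0.171, and that of Igkv4-86 0.183% ± 0.0890 and 0.728% ± 0.465. Shares sum to 100%, so a segment can gain share without a higher level. Taken as shares of the V counts without Igkv14-126, 7 of 97 were higher without overlap and 11 lower. Those higher were the other 4 just named with Igkv6-23, Igkv4-59 and Igkv9-123.

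The levels of Igkv8-28, Igkv6-23, Igkv4-59 and Igkv9-123 were lower in every KO library than in every control library, while those of Igkv3-5, Igkv12-89 and Igkv4-86 overlapped between the groups. Igkv3-5 had 31.1, 16.5 and 45.3 CPM in the control and 24.5, 15.7 and 68.6 CPM in the KO (log2 fold change 0.23 ± 0.57, SE). Igkv12-89 had 56.5, 21.1 and 38.4 CPM in the control and 22.6, 12.3 and 66.0 CPM in the KO (-0.20 ± 0.60). For both, KO replicate 3 was the highest of all 6 libraries and KO replicate 2 the lowest. Igkv4-86 had a log2 fold change of 0.06 ± 0.63 and Igkv7-33 one of 1.52 ± 1.36, and all 4 had an adjusted p of 0.9996 in edgeR. The counts of Igkv7-33 came mostly from KO replicate 3, at 8.53 CPM, against 1.38 and 0.128 in the other KO libraries.

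Igkv3-4, with the same germline CDR3 end as Igkv3-5, had different values. It had 38.9, 29.3 and 56.9 CPM in the control but 0.765, 0.384 and 35.1 CPM in the KO libraries. KO replicate 3 alone was within the control range, and the log2 fold change was -1.78 ± 1.13 (SE; adjusted p 0.9996 in edgeR). Single libraries stood out for other segments too. Of the 25 V segments that reached 10 CPM in a KO library, 9 had a highest KO library over 3 times the next, and in 8 of them it was KO replicate 3. In the control this held for 9 of 64 segments, among them Igkv12-38, with 124 CPM in replicate 1 against 27.0 and 25.2 in the others. KO replicate 3 also had the highest summed level of the V segments other than Igkv14-126 in its group. That sum was 784 CPM, against 395 and 188 in KO replicates 1 and 2, and its part in the count of 8 was not tested.

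Breadth was measured in 3 ways. V segments with a count numbered 91, 92 and 94 in the control and 83, 66 and 86 in the KO libraries, and those with at least 10 counts 81, 76 and 81 against 50, 37 and 66. These numbers rise with the counts, which were fewer in the KO. Drawn down to 4517 kappa V counts, the total of the shallowest library, the expected number of segments was 83.9, 82.1 and 85.2 in the control and 80.9, 66.0 and 79.5 in the KO. The groups did not overlap, but the difference of -8.27 rested mainly on KO replicate 2 and was -3.53 without it. Without Igkv14-126, and drawn down to the smallest total then left, the difference was -5.30 and the groups overlapped. That depth was lower than 4517 counts, so this difference and that of -8.27 are at unlike depths.

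The effective number of segments, the exponential of the Shannon entropy of the shares, states how many equally used segments would give the same diversity. It was 33.3, 28.8 and 24.9 in the control and 10.4, 6.04 and 11.5 in the KO libraries, with means of 29.0 ± 4.18 and 9.32 ± 2.90 (SD, n = 3). Every KO library was below every control library. The inverse Simpson index, which weights common segments more, was 11.0 ± 2.68 and 2.93 ± 0.665. The most counted 8, 7 and 6 segments were needed to reach 50% of the counts in the control, and 1 segment in each KO library.

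The gap was smaller without Igkv14-126. The effective number of the other segments was 48.1, 45.3 and 45.9 in the control and 40.8, 36.3 and 42.7 in the KO, a difference of -6.52, still without overlap. Over all segments, the share profiles of 2 libraries had 77.2% to 80.8% in common between control libraries, 78.0% to 84.3% between KO libraries and 49.98% to 68.2% across groups. Without Igkv14-126 these ranges were 74.9% to 77.0%, 62.6% to 67.9% and 53.6% to 67.4%. The range between KO libraries then overlapped the range across groups, while that between control libraries stayed above both.

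**Figure D4:**
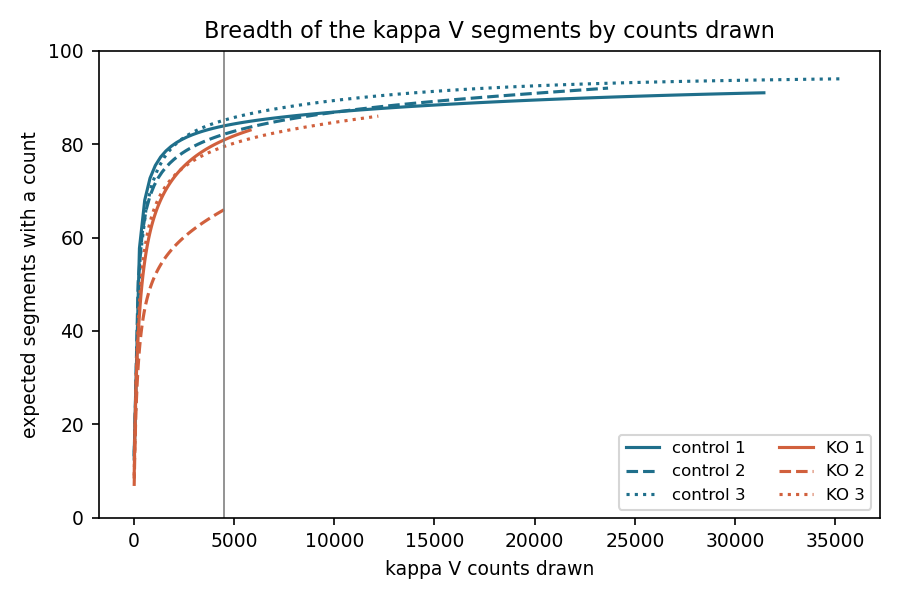
Lines give the expected number of kappa V segments with a count when the number of counts on the horizontal axis is drawn from a library (blue for control, orange for KO; solid, dashed and dotted lines for replicates 1, 2 and 3). At the grey line, 4517 counts, the control libraries lie at 82.1 to 85.2 segments, and KO replicate 2, at 66.0, lies below KO replicates 1 and 3.

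By V subgroup, which groups segments of similar sequence, Igkv14 was the one with the largest share in both groups, at 33.6% ± 3.66 in the control and 59.9% ± 7.23 in the KO (SD, n = 3). In the KO that share was almost all Igkv14-126, at 58.7%. In the control Igkv14-126 had 27.8% and Igkv14-111 4.94%. Igkv14-111 fell, and Igkv14-130 and Igkv14-100 had log2 fold changes of -2.88 and -2.43 (adjusted p 0.9996 and 0.690 in edgeR). Igkv1, with 9 segments, had 8.89% ± 1.83 and 4.65% ± 1.45, and Igkv8, also with 9, had 8.16% ± 1.27 and 4.14% ± 0.267, both without overlap. The largest subgroup, Igkv4 with 27 segments, had 8.10% ± 1.24 and 5.29% ± 1.36, with overlap. Igkv3 kept a like share, 4.83% ± 0.420 and 5.38% ± 1.45, although Igkv3-2 and Igkv3-7 in it fell.

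Lower levels ran along the whole locus. Kappa recombination can repeat on 1 chromosome, with V segments farther out joined to J segments further downstream in later rounds. Splitting the 93 placed segments into 3 sets of 31 by distance from Igkj1, the median log2 fold change was -2.93 in the nearest set (25 tested), -2.46 in the middle set (24 tested) and -2.39 in the farthest set (26 tested). The share of kappa V counts was 20.8% ± 2.51 in the control and 13.0% ± 2.26 in the KO for the nearest set, and 57.1% ± 2.62 and 76.7% ± 3.23 for the farthest. Without Igkv14-126, which lies in the farthest set, these became 28.8% ± 3.02 and 31.8% ± 2.40, and 40.6% ± 3.30 and 43.2% ± 3.83 (SD, n = 3). Segments in the orientation of the J segments, which join by deletion, had a median of -2.66, and those in the opposite orientation, which join by inversion, one of -2.46.

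**Figure D5:**
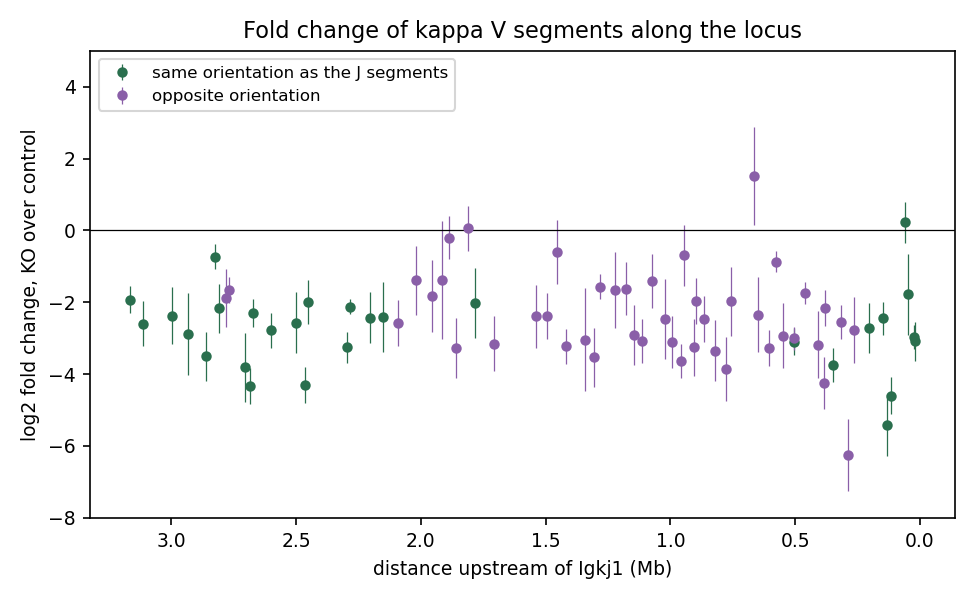
Each point is the log2 fold change (KO over control) of 1 tested kappa V segment with a KO count, with its SE as a bar, against its distance upstream of Igkj1 in Mb; green and purple give the orientation. Points below 0 run along the whole locus, and the 3 sets by distance have medians of -2.93, -2.46 and -2.39 from near to far.

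The J segments were lower in the KO as well, at few counts. The J segments together had 77, 63 and 110 counts in the control and 15, 17 and 37 in the KO libraries, with means of 9.66 ± 3.30 and 3.19 ± 1.65 CPM (SD, n = 3). The difference of the mean log2 CPM was -1.66 with an SE of 0.48. Igkj4 had 23, 21 and 26 counts in the control and 4, 5 and 11 in the KO. Igkj3 had 20, 15 and 29 against 2, 3 and 10, Igkj5 had 17, 14 and 26 against 6, 2 and 8, and Igkj2 had 12, 8 and 18 against 1, 4 and 4. None of these 4 overlapped between groups, whereas Igkj1, with 5, 5 and 11 against 2, 3 and 4 counts in libraries of unequal depth, did in CPM.

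None of the 3 J segments tested passed in edgeR, where all 3 had an unadjusted p under 0.05, nor with the block, in DESeq2 or in limma-voom. Their log2 fold changes were -1.52 ± 0.41 for Igkj4, -1.81 ± 0.58 for Igkj3 and -1.54 ± 0.53 (SE) for Igkj5, with adjusted p of 0.528, 0.841 and 0.963 in edgeR (0.142, 0.117 and 0.213 with the block). J counts were 0.245%, 0.266% and 0.310% of the V counts in the control and 0.259%, 0.376% and 0.303% in the KO libraries. Per length, in the deposited FPKM, they were 2.17% to 2.73% and 2.29% to 3.36%. A J exon is short and lies at the V-J junction in joined RNA, and how such reads were placed is not given in the sources used here.

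Other genes of the kappa pathway were read from lists. Of the recombination machinery, 13 of 14 listed genes were tested, with a median log2 fold change of -0.03, and none passed in edgeR (0 at an unadjusted p under 0.05), with the block, in DESeq2 or in limma-voom. Of the transcription factors that act at the kappa locus, 15 of 17 were tested, with a median of -0.04. None passed in edgeR (3 at an unadjusted p under 0.05) or limma-voom, and 3 were called in DESeq2 and 3 with the block. With the block Irf4, which drives plasma cell fate, fell by 1.14 (adjusted p 0.00217 in edgeR, 0.585 without the block). Ikzf3 fell by 1.55 (0.0132, 0.263 without) and Pou2af1, a B cell coactivator at immunoglobulin promoters, by 1.43 (0.0115, 0.693 without). Among the light chain partners, the constant and lambda genes, 5 were tested with a median of -1.87. None passed in edgeR (4 at an unadjusted p under 0.05) or limma-voom, 2 did in DESeq2, and 4 fell with the block: Igkc, Iglv3 (-3.04), Iglv1 (-2.33) and Iglc2 (-1.73).

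Most markers of antibody-secreting cells moved with the kappa segments. The 12 plasma cell genes, all tested, summed to 3195 to 4636 CPM in the control and 765 to 1863 CPM in the KO libraries, without overlap, and none was at 0. Most of each sum was Igj, with 2650 to 3891 CPM in the control and 460 to 1400 CPM in the KO. The median log2 fold change of the 12 genes was -1.29 and 11 of 12 were negative. Slamf7 (0.12), Fkbp11 (-0.15) and Cd38 (-0.16) had log2 fold changes near 0 in edgeR. None of the 12 passed in edgeR (9 at an unadjusted p under 0.05) or limma-voom, 6 were called in DESeq2, and 7 fell with the block. Among these were Derl3, which acts in disposal of misfolded proteins (-1.78, adjusted p 0.00302 with the block and 0.0678 without), Mzb1, an endoplasmic reticulum chaperone (-2.02, 0.00317 and 0.140), and Igj, the joining chain of IgM and IgA (-2.07, 0.00432 and 0.210). Their part in the kappa result was not tested.

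Mature B cell genes summed to 153 to 177 CPM in the control and 136 to 141 CPM in the KO libraries, without overlap. The largest part was Cd37 (means of 65.6 CPM in the control and 65.5 in the KO). Of the 13 genes, 7 were tested, while others, such as Pax5 and Ebf1, had too few counts. The median log2 fold change was -0.52, with 6 negative and 1 positive. Cd79a, with the smallest p, had -1.63 (adjusted p 0.473 in edgeR, 0.0533 with the block). None of the 7 passed in edgeR (2 at an unadjusted p under 0.05), with the block, in DESeq2 or in limma-voom. Pro-B and pre-B genes summed to 804 to 854 CPM in the control and 728 to 961 CPM in the KO, with a median of 0.11 over 5 tested and none passing in any of these fits or at an unadjusted p under 0.05 (0 genes). Most of that sum came from Cd93 (means of 531 CPM in the control and 574 in the KO) and Dntt (286 and 260). The other tested genes, Il7r, Bst1 and Rag2, had control means of only 6.77, 4.88 and 2.52 CPM. The RAG subunit Rag1 and the surrogate light chain genes Vpreb1, Vpreb3 and Igll1 had too few counts to test. The medians were -0.29 for macrophage, -0.34 for T and NK, -0.35 for erythroid and -0.70 for neutrophil genes. None of these passed in edgeR (0, 2, 0 and 5 at an unadjusted p under 0.05), with the block or in limma-voom, and 4 neutrophil genes did in DESeq2. Both libraries of number 1 had the highest macrophage sums, 771 CPM in the control and 535 CPM in the KO, against 69.9 to 159 CPM in the other 4.

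The authors' deposited table gave an adjusted p for 85 of the members. Under 0.05 were 26 of these in the authors' deposited table, all of them lower in the KO, of 99 lower genes (0.597%) among the 16577 with an adjusted p.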

How the data were processed

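RNA-seq libraries of 3 control and 3 KO pools were grouped by the labels. The authors deposited whole-number counts per gene and library, without normalization, and FPKM values, used here for shares only. The authors' deposited log2 fold changes set the direction of their calls, and their deposited adjusted p-values were only counted. The build mm10 and the tools Novoalign 2.08.01 and DESeq2 1.10.1 are named, without a role, in the submitters' processing notes. The read counter, its annotation, its use of strand and its handling of reads shared by similar segments are not given in the sources used here. Of 93 V segments with a sequence, 6 have a nearest member at least 97% identical, so their counts are uncertain. Among them are the called Igkv17-121, 97.5% identical to Igkv17-127, and Igkv8-28, named for its share, 97.7% identical to Igkv8-19.

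All genes were fitted with edgeR 4.0.16 in R 4.3.3 (TMM, filterByExpr with minimum count 10 and minimum total 15, two-sided quasi-likelihood F test on group, Benjamini-Hochberg over all genes, threshold 0.05). SEs were derived from the F statistic, and CPM use TMM library sizes. DESeq2 1.42.0, limma-voom (limma 3.58.1), other scalings and filters, and leaving out each library were alternatives. The scripts were tested on simulated data. Shares, expected segment numbers and diversity were computed in Python 3.11.15 with scipy 1.17.1. A count of 0 allows up to 3 counts, and the p-values of the fits set the group difference against the spread between pools.

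The labels do not say what replicate numbers share. Deviations from the group means correlated by 0.573, 0.526 and 0.219 across genes between libraries of equal number, all above 0.1, so the block is given where it changed a call; control replicate 3 and KO replicate 2 also correlated by 0.133.

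The members and gene lists were chosen with earlier results of these data known. Segments named are those past the threshold, the 10 highest in mean CPM, each library's most counted, all J segments and the 4 highest fold changes. Of each list up to 3 genes with the smallest p were eligible. Other segments and genes were chosen after their values were seen. Some genes of the lists are not reported here by name.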

Additional observations from a re-analysis of the deposited data

How the results depend on the processing

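Against 10 lower members, 28 were called without a filter on low counts, 40 with the replicate block, 33 in DESeq2, 5 in limma-voom and 0 to 9 with 1 library left out; the other scalings and the filter at a mean of 1 CPM gave 10 to 12. No setting called a member higher. The block narrowed the SE of the summed V level from 0.49 to 0.25. Leaving out 1 library kept the summed V level between -2.26 and -1.49, the summed J level between -2.06 and -1.40, the expected number of segments between -10.99 and -3.53, the effective number between -21.7 and -17.5, and the gain in the largest share between 26.6 and 33.7 percentage points. Without Igkv14-126, an alternative chosen after seeing the data like the FPKM shares, the summed V level differed by -2.67 and the effective number by -6.52; the inverse Simpson index differed by -8.11.

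Log2 fold changes that reversed belonged to 4 segments that had not passed. Igkv7-33 was -0.67 without KO replicate 3 (at most 2.09). Igkv3-5 was -0.08 without control replicate 2 and -0.63 without KO replicate 3 (at most 0.60). Igkv4-86 was -0.36 and -0.46 in the same settings (at most 0.45). Igkv12-89 was 0.17 when control replicate 1 was left out, and 0.01 or 0.19 when KO replicate 1 or 2 was (at lowest -1.15). The cause of these changes was not tested. Over all settings of the named segments, 268 values kept direction and side of the threshold, 48 lost and 11 gained a call. Depth limits the J segments and the rarer V segments: 3 counts equal 0.0246% to 0.0664% of the kappa V counts in the KO libraries.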

Other observations

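A heavy chain V segment, chosen after its values were seen, showed a like pattern. Ighv11-2 is known as the partner of Igkv14-126 in the phosphatidylcholine-binding receptor of B-1 cells. It had 3332, 2575 and 5039 counts in the control and 1534, 1393 and 3252 in the KO libraries, and its log2 fold change was -0.56 ± 0.39 (SE; adjusted p 0.9996 in edgeR, 0.017 with the block). Among the 99 heavy chain V segments it was the most counted in every library. Its share of their counts was 12.4%, 14.9% and 18.6% in the control and 35.7%, 49.8% and 35.2% in the KO, with means of 15.3% ± 3.10 and 40.2% ± 8.27 (SD, n = 3). The counts of Igkv14-126 per count of Ighv11-2 were 2.23, 2.50 and 2.28 in the control and 2.10, 2.19 and 2.00 in the KO libraries, so each KO library lay slightly below each control library. A second heavy chain V segment that was looked up, Ighv12-3, had 8, 4 and 38 counts in the control and 4, 3 and 56 in the KO libraries. Its counts were too few for the test, and its groups overlapped. Bulk libraries do not show which heavy and light chains share a cell.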
